A study of Mus musculus with 9 samples.

Results

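The DNA replication machinery was followed as 46 genes, chosen by name as the loading factors, helicase, polymerases, clamp, maturation enzymes, nucleotide enzymes and regulators that copy the genome in S phase, out of 55401 annotated genes in the deposited tables. All 46 were found and all passed the limit of a mean normalized count of 10 in each comparison. RNA-Seq had been made from H9M leukemia cells, in which lineage-negative bone marrow of C57BL/6-Ly5.1 mice carried a gammaretroviral vector for Meis1, Hoxa9 and puromycin resistance. Cells of every group had also been edited with Cas9 and carried a color-coding lentiviral vector driven by a Cbx3 element and the SFFV promoter. Cells sorted as single cells had grown into clones, which were pooled and transplanted with helper marrow into lethally irradiated C57BL/6J mice, and color-coded CD45.1+ cKit+CD11bdim splenocytes were thawed and sorted for RNA.

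Each of the 9 libraries belonged to 1 of 3 groups of 3. Pre-malignant libraries came from clones 33, 38 and 43BC-D of 1 mouse, #15, killed before leukemia. De novo expanded libraries came from clone 38 of mouse #13, clone 43 of mouse #14 and clone 33 of mouse #17 at the leukemic endpoint. Stably expanded libraries came from 1 clone, 34BC-D, in mice #13, #14 and #17, so their spread is between mice and not between clones. Each difference from the pre-malignant group also carries the difference between mouse #15 and the endpoint mice, and the mouse, its time of death and the group cannot be told apart. In each difference of the stably expanded group from another group, clone 34BC-D and the group also cannot be told apart. The deposited columns name a group but no clone, so the numbers 1 to 3 given to a group's libraries stand for neither a clone nor a mouse. Ages of the mice were not given in the sources used here.

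Replication starts where the origin recognition complex, Cdc6 and Cdt1 load rings of Mcm2 to Mcm7 onto DNA in G1. In S phase the kinase pair Cdc7 and Dbf4, with Cdc45 and the GINS complex, turns each ring into an active helicase, primase and polymerase alpha lay down primers, and polymerases delta and epsilon extend them on the PCNA clamp. Many of these genes are transcribed at the G1/S border under E2F factors, and hematopoietic progenitors that divide quickly carry high levels of them.

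Letters that match known control elements stand in the sequence before several of these genes, and 4 sequences are shown for genes described below. Mcm5 and Mcm6 belong to the replicative helicase. Pola1 is a polymerase alpha subunit whose lower values in leukemic libraries did not pass the test used below. Rrm2 is a nucleotide enzyme that passed it as higher in stably expanded cells only. The stretches are from RefSeq on GRCm38.p6, run 5′ to 3′ on the gene's strand and end at or before the start site. Capitals mark matches to the E2F letters TTTCCCGC, TTTGGCGC, TTTCGCGC or TTTGCCGC and to CCAAT, on either strand, so that CCAAT on the other strand reads ATTGG.
Mcm5, chr8:75109259-75109508, plus strand: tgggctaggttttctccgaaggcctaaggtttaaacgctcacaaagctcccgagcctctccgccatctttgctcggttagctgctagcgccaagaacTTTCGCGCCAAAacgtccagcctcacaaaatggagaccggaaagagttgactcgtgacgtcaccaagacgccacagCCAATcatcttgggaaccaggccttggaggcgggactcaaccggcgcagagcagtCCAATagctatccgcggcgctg
Mcm6, chr1:128359706-128359955, minus strand: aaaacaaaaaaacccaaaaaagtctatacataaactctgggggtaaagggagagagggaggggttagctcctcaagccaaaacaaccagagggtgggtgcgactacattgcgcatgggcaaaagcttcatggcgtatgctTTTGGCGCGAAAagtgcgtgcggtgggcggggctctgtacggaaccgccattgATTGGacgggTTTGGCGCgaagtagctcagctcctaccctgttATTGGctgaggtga
Pola1, chrX:93632156-93632405, minus strand: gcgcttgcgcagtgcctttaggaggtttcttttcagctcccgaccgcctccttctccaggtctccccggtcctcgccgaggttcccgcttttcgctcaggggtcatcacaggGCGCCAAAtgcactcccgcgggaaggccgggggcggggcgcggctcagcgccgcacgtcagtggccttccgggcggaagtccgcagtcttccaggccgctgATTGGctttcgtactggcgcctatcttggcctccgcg
Rrm2, chr12:24708004-24708240, plus strand: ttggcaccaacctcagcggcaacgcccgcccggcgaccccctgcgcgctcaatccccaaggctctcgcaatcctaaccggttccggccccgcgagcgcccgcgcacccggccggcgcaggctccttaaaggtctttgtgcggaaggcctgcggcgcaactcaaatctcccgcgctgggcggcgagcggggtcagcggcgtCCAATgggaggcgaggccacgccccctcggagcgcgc
In Mcm5 and in Mcm6, 2 of the E2F matches overlap on opposite strands and appear as 1 capital run.

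A promoter entry, 250 bases before to 50 after the start, was found for 38 of the 46 genes. E2F letters stood in 13 of the 38 (34.2%), against 4.97% of 9083 genes with an entry that were tested. The 13 were Cdc6, Cdt1, Orc1, Mcm3, Mcm5, Mcm6, Mcm7, Gins3, Pola1, Pold1, Pole2, Rfc3 and Lig1. CCAAT stood in 23 of the 38 (60.5%), against 43.4% of tested genes. A match is only a run of letters, and its absence from this window says nothing of the factor. The median log2 fold change of stably expanded over pre-malignant cells was 0.20 in the 13 genes with E2F letters and 0.15 in the 25 without, and for de novo expanded over pre-malignant cells it was 0.17 and 0.23, so the letters did not separate the genes in 1 direction.

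All 46 genes were transcribed in all 9 libraries, and the helicase genes Mcm3, Mcm6, Mcm5 and Mcm4 led them. Levels between genes were compared as normalized counts per kb of exon length, averaged over 9 libraries. Mcm3 stood at 1729 and Mcm6 at 1720 per kb, followed by Mcm5 at 1143 and Mcm4 at 1020. Next came the DNA ligase Lig1 at 851 and Rrm2 at 778. The helicase gene Mcm7 followed at 774, the flap nuclease Fen1 at 770.2, Mcm2 at 758 and the clamp Pcna at 627. The lowest levels per kb were those of Gins3 (93.6) and of Orc1 (92.0), the largest subunit of the origin recognition complex, and the highest mean was 18.8 times the lowest.

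**Figure D1:**
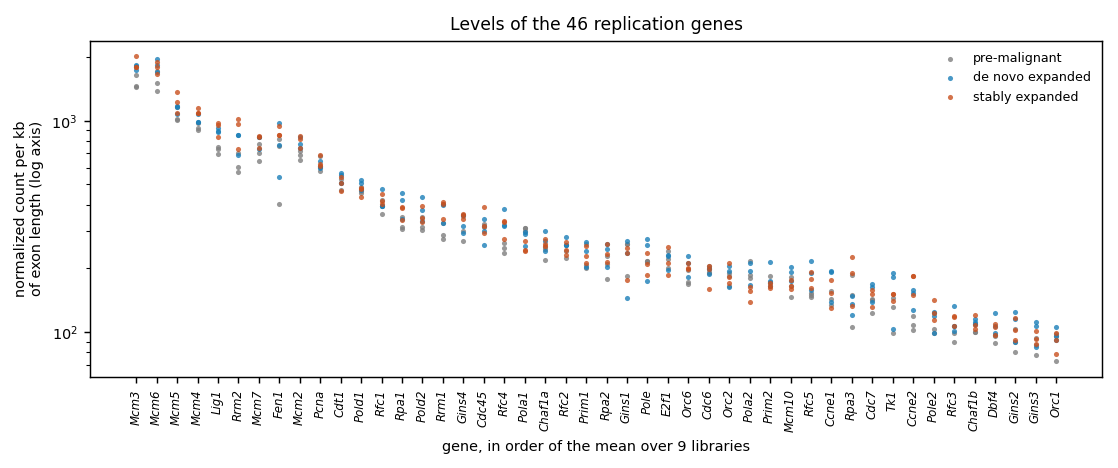
Normalized count per kb of exon length (log axis) of each of the 46 genes, ordered by the mean over 9 libraries, with 1 point per library colored by group. The helicase genes Mcm3 and Mcm6 lie near 1720 per kb at the left and Orc1 near 92.0 at the right, and the 3 colors overlap for most genes.

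Subunits that sit together in 1 complex did not have equal levels per kb. Within the Mcm2 to Mcm7 ring the order Mcm6, Mcm5, Mcm4, Mcm7 held in 9 of 9 libraries at each step. Mcm3 and Mcm6 did not differ beyond their spread (mean log2 ratio 0.01 ± 0.11, SD, n = 9 libraries, Mcm3 higher in 3 of 9), nor did Mcm7 and Mcm2 (0.03 ± 0.15, SD, n = 9). In the clamp loader, Rfc1 stood above Rfc4 in 9 of 9 libraries and Rfc5 above Rfc3 in 9 of 9. Of the trimeric single-strand binding protein, Rpa1 stood above Rpa2 and Rpa2 above Rpa3 in 9 of 9 libraries. GINS ran from Gins4 (328 per kb) through Gins1 (224) to Gins2 (101) and Gins3, with Gins2 above Gins3 in 8 of 9. Exon length here is that of all annotated exons of a gene, so a gene with unused exons has too low a level per kb.

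Reads on genes numbered 10379739 to 15551196 per library, and the 46 genes took 0.504% to 0.567% of them in pre-malignant, 0.561% to 0.628% in de novo expanded and 0.575% to 0.615% in stably expanded libraries. The sort and design genes Kit, Ptprc, Hoxa9 and Meis1 were read in all 9 libraries, and Itgam, which encodes CD11b, rose by 0.61 ± 0.17 in stably expanded over pre-malignant cells (limma adjusted p = 0.0485). RNA markers moved with the groups. Summed B cell markers (10 of 10 in the table) were 217 to 263 CPM (reads scaled to the library's reads on genes) in pre-malignant, 76.3 to 208 in de novo expanded and 86.6 to 105 in stably expanded libraries, of which Ighm made up most, while Cd79a and Ms4a1 were under 3 CPM everywhere. The 15 immediate early genes, which respond to handling and to growth signals, summed to 2893 to 3224 CPM in pre-malignant, 1548 to 1890.2 in de novo expanded and 975 to 2200.4 in stably expanded libraries, and 14 of the 14 tested had lower means in stably expanded than pre-malignant cells, of which 9 passed the test (3.61% of all genes were called lower). Summed stroma and endothelium markers (7 of 7 in the table) were at 248 to 271 CPM in pre-malignant, 109 to 282 in de novo and 99.1 to 169.5 in stably expanded libraries, of which Pecam1 made up most, while Cdh5, Col1a1, Col1a2 and Col3a1 were at 1.23 CPM or less everywhere. The 10 erythroid genes summed to 25.4 to 56.6 CPM in pre-malignant, 3.33 to 20.6 in de novo and 4.82 to 33.3 in stably expanded libraries. Macrophage markers, mostly Adgre1 and Vcam1, summed to 87.6 to 187 CPM, 53.7 to 243 and 171 to 229 in the same order. Olfactory and vomeronasal receptor genes, which these cells are not known to use, took 0.00808% to 0.0179% of reads in pre-malignant, 0.00376% to 0.0118% in de novo and 0.00215% to 0.00788% in stably expanded libraries. Genes with a read numbered 27896 to 30548 in pre-malignant, 23537 to 27989 in de novo expanded and 21618 to 27067 in stably expanded libraries. The part of these differences in the replication values was not tested, and in bulk RNA fewer cells in S phase and less RNA per cell cannot be told apart.

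Values below are normalized counts over all 9 libraries, meaning reads divided by each library's size factor. Fold changes are differences of mean log2(normalized count + 1) in the pairwise table, with limma's standard error (SE), and a gene was called at a Benjamini-Hochberg adjusted p under 0.05.

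Stably expanded cells differed from pre-malignant cells in 3 of the 46 genes, all higher. They were Ccne2, which encodes cyclin E2, Rrm2, the small subunit of ribonucleotide reductase, and Lig1, which seals Okazaki fragments. Of all 13968 genes tested, 7.95% were called, 4.34% higher and 3.61% lower. Against that background 3 of 46 higher and 0 lower is close to the share of all genes. No member reached a 2-fold difference, and 2.75% of all genes were called with a difference of at least 2-fold. Small differences had mostly 1 direction, and 38 members had a log2 fold change above 0 and 8 below, with a median of 0.15 (range -0.35 to 0.65), where 50.5% of all genes were above 0 and their median was 0.00. Members are not independent of each other, and no test was made of the list.

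Ccne2 (ENSMUSG00000028212.16, chr4:11191351-11204779) binds Cdk2 to drive entry into S phase. It had normalized counts of 417, 358 and 376 in pre-malignant, 531, 554 and 445 in de novo expanded and 645, 525 and 645 in stably expanded libraries. All 3 stably expanded libraries and all 3 de novo expanded libraries lay above every pre-malignant library. In stably expanded cells it rose by 0.65 ± 0.13 log2 (SE, n = 3 and 3; limma adjusted p = 0.0187), a 1.57-fold difference and the only member past 1.5-fold. The de novo expanded difference of 0.43 ± 0.14 did not pass (adjusted p = 0.399).

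Its paralog Ccne1, cyclin E1, had 379, 357 and 416 in pre-malignant, 515, 513 and 369 in de novo expanded and 467, 405 and 345 in stably expanded libraries. De novo expanded libraries 1 and 2 stood highest and the groups overlapped. The ratio of Ccne2 to Ccne1 was 0.902 to 1.10 in pre-malignant, 1.03 to 1.21 in de novo expanded and 1.30 to 1.87 in stably expanded libraries, so the stably expanded libraries lay above the other 6 in this ratio, which was picked after its values were seen and was not tested. E2f1, a transcription factor of the same border, had 632, 699 and 762, then 730.5, 720.0 and 621, then 793, 669 and 584 in the same order of groups. These overlapped throughout, and its log2 differences from pre-malignant cells were 0.00 ± 0.13 and -0.04 ± 0.14.

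Of the deoxynucleotide supply genes, 3 of 3 had higher means in both leukemic groups than in pre-malignant cells, and 1 was called. Rrm2 (ENSMUSG00000020649.11, chr12:24708241-24714146) had normalized counts of 1577, 1675 and 1959 in pre-malignant, 2379.5, 2384 and 1901 in de novo expanded and 2832, 2673 and 2028 in stably expanded libraries. Every stably expanded library was above every pre-malignant one, while de novo expanded library 3 lay inside the pre-malignant range. Rrm2 rose by 0.52 ± 0.13 log2 in stably expanded cells (SE, n = 3 and 3; limma adjusted p = 0.0402), or 1.44-fold. The large subunit, Rrm1, had 3026, 3177 and 3622, then 4448, 4392 and 3606, then 4440.1, 4562 and 3769, with every stably expanded library above the pre-malignant ones and de novo expanded library 3 just under the highest of them on this scale, though above it in the pairwise table. Its difference of 0.38 ± 0.11 missed the limit in stably expanded cells (adjusted p = 0.0527).

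Thymidine kinase, Tk1, salvages thymidine and varied widely within groups. It had 511, 748 and 684 in pre-malignant, 950.4, 992 and 534 in de novo expanded and 782, 786 and 727 in stably expanded libraries. De novo expanded libraries 1 and 2 were the highest of all 9 and library 3 was lower than all but 1.

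In Okazaki fragment maturation, Lig1 (ENSMUSG00000056394.17, chr7:13277283-13311433) had normalized counts of 2958, 3154 and 3213 in pre-malignant, 3776, 3966 and 3820.5 in de novo expanded and 4069, 3588 and 4161 in stably expanded libraries. All 6 leukemic libraries were above all 3 pre-malignant libraries, with the smallest SE of the 3 called genes. It rose by 0.34 ± 0.09 log2 in stably expanded cells (limma adjusted p = 0.0452), and the de novo expanded difference was 0.33 ± 0.08 (adjusted p = 0.360). Fen1, which trims the flaps that Lig1 then seals, had 973, 1841 and 1993, then 2353, 1862 and 1317, then 2298, 2083 and 2068. Its low value in pre-malignant library 1 was the largest departure of any member from its own mean, and its stably expanded difference of 0.49 ± 0.22 did not pass (adjusted p = 0.186).

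**Figure D2:**
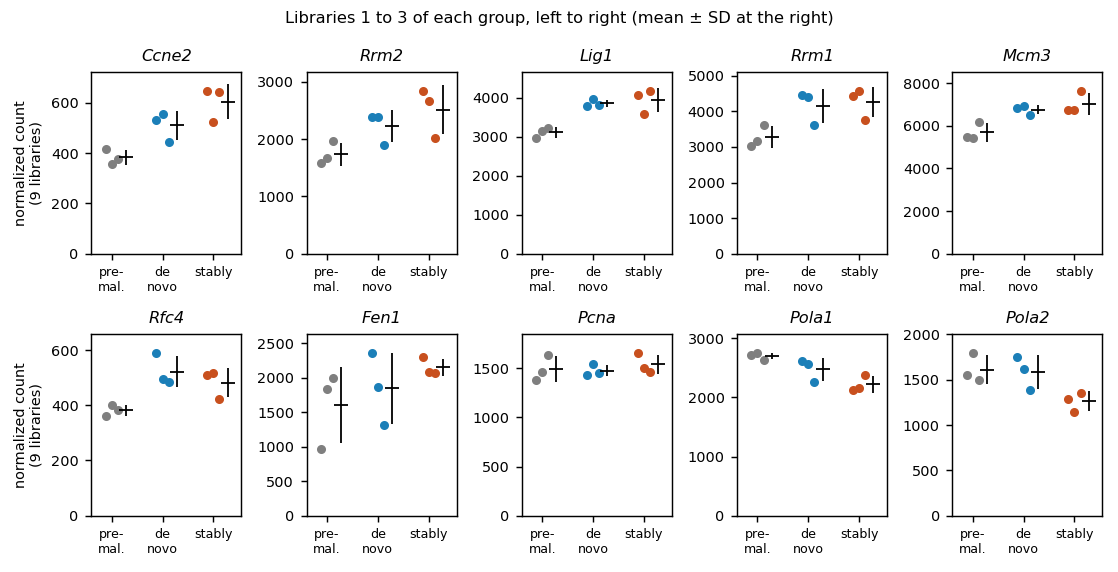
Normalized count over 9 libraries (y axis from 0) of 10 genes, with libraries 1 to 3 of each group as points from left to right and the group mean ± SD beside them. All 6 leukemic points of Ccne2 and Lig1 lie above the pre-malignant points, those of Pcna overlap them, and the stably expanded points of Pola1 and Pola2 lie below them.

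The Mcm2 to Mcm7 helicase genes had higher means in both leukemic groups in 6 of 6 members, with median log2 differences of 0.21 (de novo) and 0.22 (stably expanded). None passed the adjusted limit. Mcm3 had 5467, 5407 and 6191 in pre-malignant, 6818, 6911 and 6512 in de novo expanded and 6718, 6754 and 7607 in stably expanded libraries. All 6 leukemic libraries lay above the pre-malignant ones, by 0.27 ± 0.09 (limma adjusted p = 0.402) and 0.31 ± 0.09 (adjusted p = 0.0698). Mcm5 had 4047, 4076 and 4621, then 4662, 4283 and 4669, then 5439.9, 4919.6 and 4349. Its differences were 0.12 ± 0.09 and 0.20 ± 0.10, the smallest of the 6 in de novo expanded cells. Mcm2 (4547 to 5014 in pre-malignant, 5166 to 5866 in leukemic libraries) and Mcm4 (3263 to 3506, then 3524 to 4105) also did not overlap. Mcm5, Mcm6 and Mcm7 overlapped on the scale of all 9 libraries, where only pre-malignant library 3 reached the leukemic values. Direction was the same for 6 of 6 genes in both comparisons under quantile normalization, CPM, edgeR's scaling and with any 1 library left out.

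Loading factors that act before the helicase had smaller median differences. Orc1, Orc2, Orc6, Cdc6 and Cdt1 had a median difference of 0.13 (de novo) and 0.03 (stably expanded), and 0 of 5 passed. Cdc6, the ATPase that brings the rings to the origin, had 1067, 993 and 1007, then 1032, 1048 and 982, then 1074, 1041 and 831, overlapping in all groups. Orc6, the smallest subunit of the origin recognition complex, had 416, 487 and 424, then 521, 567 and 448, then 495, 523 and 490.2. Its stably expanded libraries lay just above the pre-malignant ones, with a difference of 0.19 ± 0.13 (limma adjusted p = 0.377).

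The 8 helicase activation genes had medians of 0.22 and 0.12, and 0 of 8 passed in either comparison. Dbf4, the activating subunit of Cdc7 kinase, had 770.1, 831 and 842 in pre-malignant, 1067, 859 and 927 in de novo expanded and 946, 915 and 842 in stably expanded libraries, where stably expanded library 3 met the highest pre-malignant one. Gins1 had 279, 397 and 395, then 408, 357 and 218, then 357, 378 and 267, so that its lowest value was de novo expanded library 3. The de novo expanded difference of Gins1 was -0.13 ± 0.26, one of the least precise of the 46.

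Polymerase and primase genes were split in direction, and none passed. In stably expanded cells 3 of the 8 had a higher and 5 a lower mean than in pre-malignant cells (median -0.03), and in de novo expanded cells 6 were higher and 2 lower (median 0.10). Pola1 (ENSMUSG00000006678.6, chrX:93304767-93632155), the catalytic subunit of polymerase alpha, had 2725, 2747 and 2637 in pre-malignant, 2617, 2563 and 2257 in de novo expanded and 2125, 2158 and 2383 in stably expanded libraries. All 6 leukemic libraries were below all 3 pre-malignant ones, by -0.28 ± 0.09 in stably expanded cells (limma adjusted p = 0.0725) and -0.11 ± 0.09 in de novo expanded cells (adjusted p = 0.680).

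Pola2 (ENSMUSG00000024833.15, chr19:5940542-5964202), the regulatory subunit of polymerase alpha, had 1548, 1791 and 1499.6, then 1756, 1617 and 1387, then 1291, 1143 and 1359. The stably expanded libraries lay below the other 6 libraries, with a difference of -0.35 ± 0.11 from pre-malignant (adjusted p = 0.0738) and of -0.32 ± 0.13 from de novo expanded cells (adjusted p = 0.891). Prim1, the catalytic primase subunit, did not follow, at 776 to 1011, 781 to 1026 and 816 to 983. The Pola2 to Prim1 ratio of counts was 1.77 to 1.99 in pre-malignant, 1.71 to 1.78 in de novo expanded and 1.31 to 1.54 in stably expanded libraries, a ratio also picked after its values were seen. Pole, the leading-strand polymerase, ranged from 1941 in de novo expanded library 3 to 3079.8 in de novo expanded library 2, with pre-malignant libraries at 2383 to 2421.

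Of the clamp and its loader, 5 of 5 loader subunits had higher means in both leukemic groups, 0 of 6 genes passed, and the clamp's differences lay near 0. Pcna had 1384, 1461 and 1640.0 in pre-malignant, 1437, 1542 and 1457 in de novo expanded and 1653, 1506 and 1468 in stably expanded libraries, with differences of 0.01 ± 0.10 and 0.05 ± 0.10. Its 95% intervals ran from -0.24 to 0.25 and from -0.18 to 0.27 log2. Rfc4 had 361, 402 and 381, then 588, 493 and 484, then 509, 516 and 422, with every leukemic library above every pre-malignant one. Rfc4 had the largest de novo expanded difference of the 46, 0.47 ± 0.13 (adjusted p = 0.380), and 0.33 ± 0.14 in stably expanded cells (adjusted p = 0.153). Rfc5 had 682 to 715 in pre-malignant and 734 to 1006 in leukemic libraries.

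Single-strand binding and chromatin assembly genes had 0 calls. Rpa1 had 1754, 1713 and 1959, then 2524, 2347 and 1912, then 2162, 2179.7 and 1896, with library 3 of each leukemic group inside the pre-malignant range. Rpa3, the smallest subunit and the member with the fewest reads, had 170.2, 120.0 and 211, then 137, 153 and 169, then 257, 217 and 150.4, with intervals too wide to give a direction (0.32 ± 0.26 in stably expanded cells). Chaf1a and Chaf1b encode subunits of the assembly factor that places histones behind the fork. Chaf1a had 1942, 2241 and 2196, then 2672, 2389 and 2143, then 2430.4, 2312 and 2254, and Chaf1b had 513, 469 and 465, then 539, 509 and 519, then 502, 483 and 564. Their differences from pre-malignant cells were between 0.10 and 0.19 in both leukemic groups, with SE of 0.09 to 0.12.

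**Figure D3:**
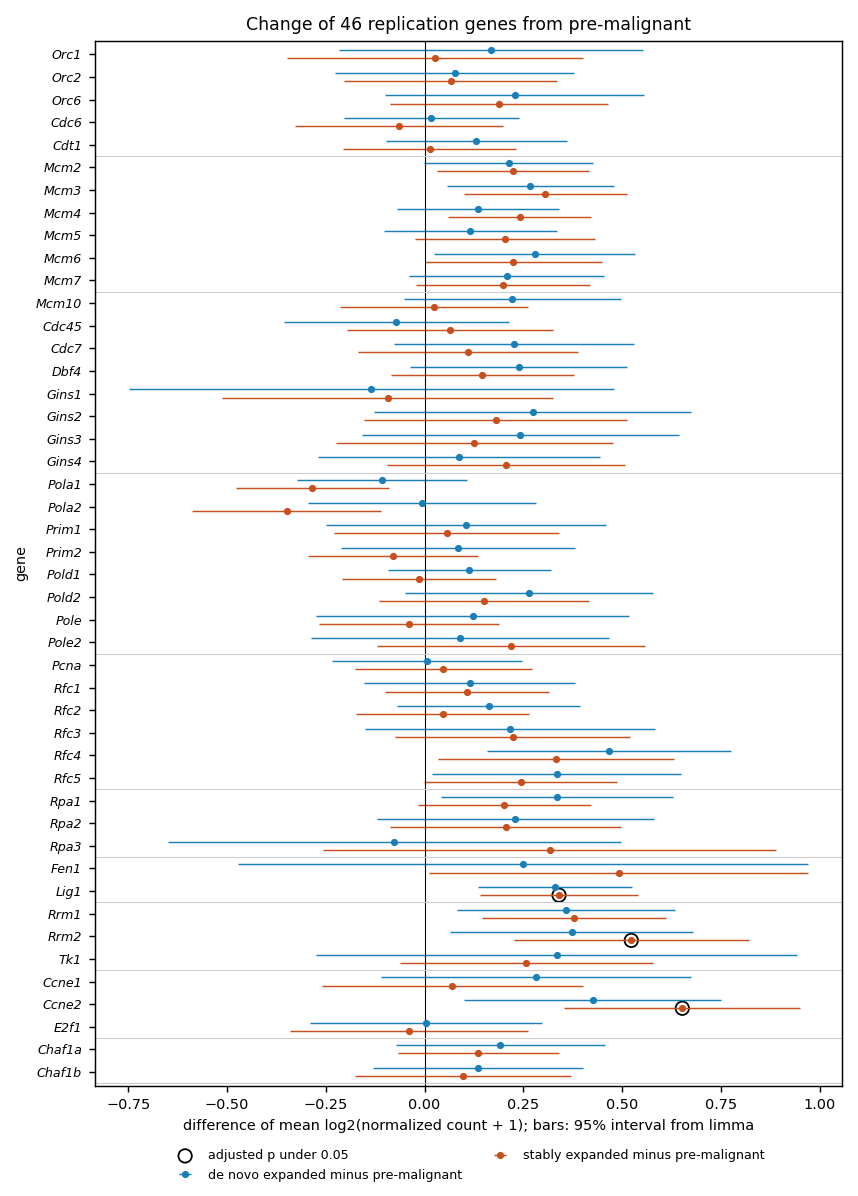
Difference of mean log2(normalized count + 1) from pre-malignant cells, with limma's 95% interval, for the 46 genes ordered by role; blue is de novo expanded, red is stably expanded, and a ring marks an adjusted p under 0.05. Most points lie right of 0, Pola1 and Pola2 lie left of 0 in red, and the 3 rings are Lig1, Rrm2 and Ccne2 in stably expanded cells.

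De novo expanded cells, which compare the same 3 clones before and at leukemia, had no called member. limma called 0 of the 46 genes, as it called 0 of all 14195 genes tested (0%; the lowest adjusted p of a member was 0.360), and edgeR and DESeq2 called 0 members. At an unadjusted p under 0.05, 9 members were higher (19.6%) and 0 lower, against 5.99% and 5.26% of all genes. They were Rfc4, Lig1, Ccne2, Rrm1, Mcm3, Rrm2, Rpa1, Mcm6 and Rfc5. In 12 members every de novo expanded library of the pairwise table was above every pre-malignant library and in 1, Pola1, below, where 10.6% and 8.50% of all genes were so placed. Means were above pre-malignant in 41 members and below in 5 (51.0% of all genes were above), with a median difference of 0.20, or 1.15-fold, and a range of -0.13 to 0.47.

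In the comparison of stably expanded with pre-malignant cells, which uses the same 3 pre-malignant libraries, groups did not overlap in 14 members higher and 2 lower, against 16.1% and 14.6% of all genes, and 10 members higher (13.2% of all genes) and 2 lower (12.3%) had an unadjusted p under 0.05. Since both comparisons share their controls, a like value in both is not a second observation. edgeR called the same 3 members and DESeq2 called Ccne2 and Rrm2, while 1 limma fit of all 9 libraries called 0 members and only 8 of all genes. A covariate for the percent of reads in olfactory and vomeronasal receptors was added once the data had been seen. With it limma called 0 members and 5 of all genes, and 30 of the 46 in place of 38 were higher. That percent was higher in every pre-malignant than in every stably expanded library. This fit therefore cannot separate the covariate from the group, and no conclusion is drawn from it. Without 1 of the libraries the 3 calls were not all kept. No member was called without pre-malignant library 2 or without stably expanded library 1, Ccne2 alone was called without pre-malignant library 1, Rrm2 alone without pre-malignant library 3, Ccne2 and Lig1 without stably expanded library 2, and Ccne2, Rrm1 and Rrm2 without stably expanded library 3.

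Between the leukemic groups none of the 46 genes was called. limma, edgeR and DESeq2 each called 0 members (0.00727% of 13758 genes were called by limma), and 1 member, Pola2, had an unadjusted p under 0.05, lower in stably expanded cells, against 4.83% of all genes (2.72% higher and 2.11% lower). Medians were near 0, with 19 members higher and 27 lower in stably expanded cells (49.6% of all genes were higher; median -0.03, range -0.32 for Pola2 to 0.41 for Rpa3). In 1 member, Mcm4, all stably expanded libraries were above, and in 1, Pola2, below, where 4.66% and 4.95% of all genes were so placed. Taken gene by gene and not adjusted for their number, the 95% intervals of 46 of 46 members lay within 2-fold. Those of 38 lay within 1.5-fold in either direction. Both groups came from the same mice, which the fit could not use.

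With all 6 leukemic libraries set against the 3 pre-malignant ones in 1 fit, 39 members were higher and 7 lower (50% of all 13960 genes were higher), with a median of 0.16. limma called 0 members, against 0.1% of all genes (0.043% higher, 0.0573% lower and 0.0287% past 2-fold), and edgeR and DESeq2 also called 0. The lowest adjusted p was 0.0903, for both Ccne2 (0.53 ± 0.12) and Lig1 (0.33 ± 0.07). At an unadjusted p under 0.05, 11 members were higher (8.95% of all genes) and 1, Pola1, was lower (9.28%), in all 12 of 46 against 18.2% of all genes. Groups of 6 and 3 did not overlap in 7 members higher, namely Mcm2, Mcm3, Mcm4, Rfc4, Rfc5, Lig1 and Ccne2, and in 1 lower, Pola1, against 5.22% and 5.59% of all genes.

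Members varied together by library, within groups as well as between them. Each gene's log2 value was taken relative to its mean over 9 libraries, and the median over the 46 was -0.16, -0.10 and -0.03 in pre-malignant, 0.12, 0.12 and -0.07 in de novo expanded and 0.10, 0.04 and -0.03 in stably expanded libraries, while the median over all 13960 genes stayed between 0.00 and 0.02. De novo expanded library 3 and stably expanded library 3 therefore lay in the pre-malignant range. Pre-malignant library 1 was the lowest of the 9 in 21 of 46 members (14.3% of all genes were lowest there), and de novo expanded library 1 was the highest in 14 (14.8%) and library 2 in 10 (9.73%).

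**Figure D4:**
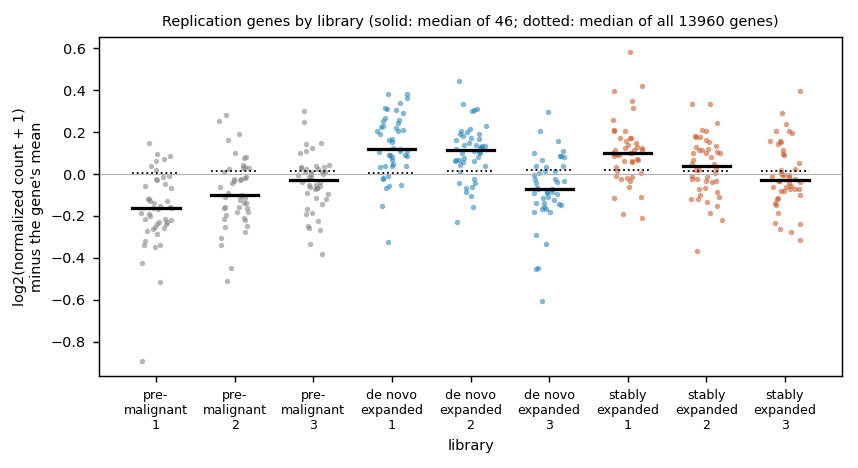
Log2(normalized count + 1) of each of the 46 genes relative to its own mean over 9 libraries, 1 point per gene and library, with the median of the 46 as a solid bar and the median of all 13960 genes as a dotted bar. The solid bars of de novo expanded libraries 1 and 2 are at 0.12 and that of library 3 at -0.07, between the pre-malignant bars at -0.16 and -0.03.

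The low level of de novo expanded library 3 was not shared by all roles. Its median relative value was -0.16 for deoxynucleotide supply, -0.19 for Okazaki fragment maturation and -0.15 for the G1/S regulators, but 0.03 for Mcm2 to Mcm7 and 0.06 for the clamp and its loader. In the same library Kit was at 274, Hoxa9 at 687 and Meis1 at 1099 CPM, against 142 to 225, 346 to 444 and 573 to 739.7 CPM in the other de novo expanded libraries, and summed macrophage markers were at 243 against 53.7 and 86.5 CPM, and whether these values bear on the replication genes was not tested. Without that library limma called 3 members, Rpa1, Rrm1 and Rrm2, higher in de novo expanded than pre-malignant cells, where 2.23% of all genes were called higher. It also called 4 members, Ccne2, Lig1, Rrm1 and Rrm2, higher in all leukemic cells, where 1.72% of all genes were called higher. That library was singled out here for its low member values, so leaving it out favors such calls. These counts are therefore no support for a rise of the members.

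**Figure D5:**
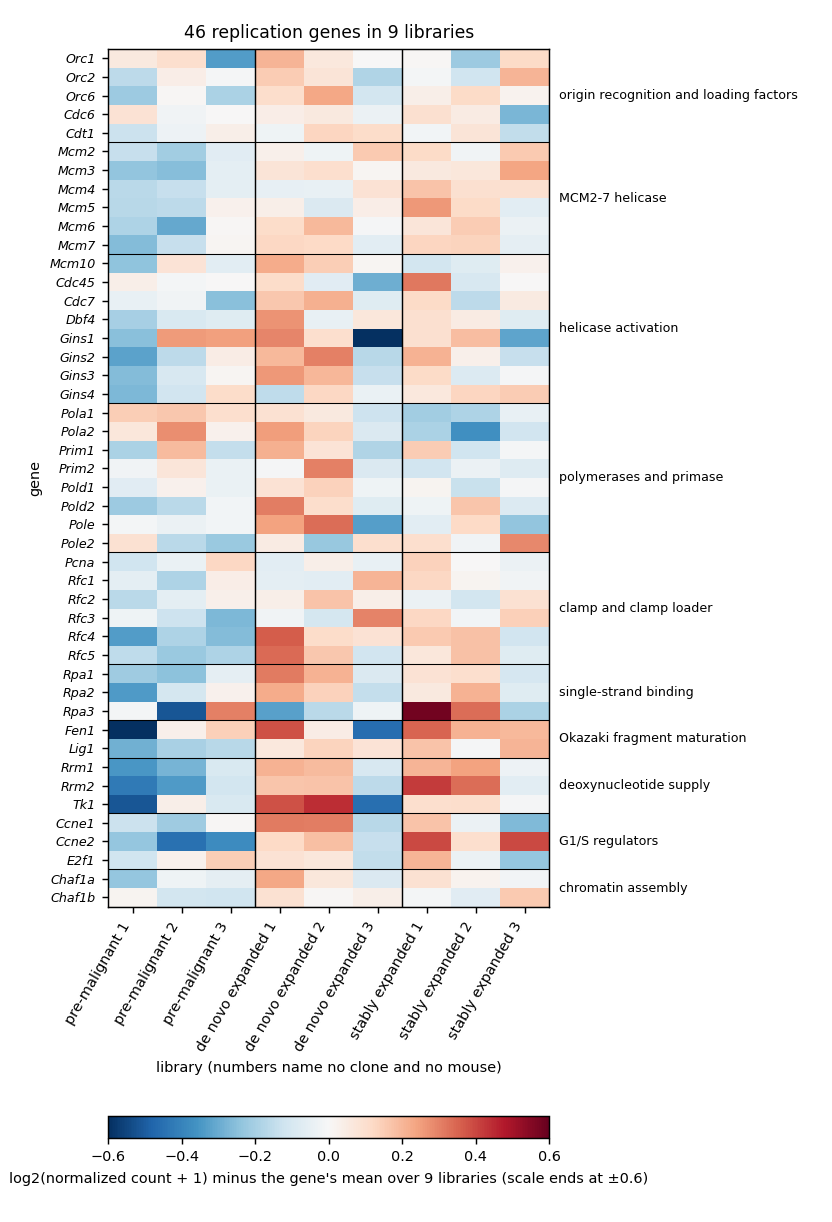
Each of the 46 genes (rows, grouped by role) in each of the 9 libraries (columns), colored by log2(normalized count + 1) relative to the gene's mean, red above and blue below, with colors ending at ±0.6. Pre-malignant library 1 is blue for most genes, de novo expanded libraries 1 and 2 are red, and Pola1 and Pola2 are blue in the stably expanded libraries.

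Spread within a group was small. The median standard deviation of log2 values over the members was 0.11 in pre-malignant, 0.16 among the de novo and 0.12 among the stably expanded libraries, against 0.13, 0.20 and 0.15 over the 7894 genes in the same range of mean counts.

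Around the core machinery, 60 further replication genes were listed by role. In stably expanded over pre-malignant cells 49 were above and 11 below (median 0.16), where 50.5% of all genes were above. limma called 4 of the 60 higher (6.67%, against 4.34% of all genes) and 1 lower (against 3.61% of all genes). Dut, which removes dUTP, had 1210.3, 1296 and 1402, then 1643, 1795 and 1985, then 2243, 1986 and 1895, and rose by 0.65 ± 0.10 (limma adjusted p = 0.00741). The histone-binding protein gene Rbbp4 rose by 0.41 ± 0.09 (adjusted p = 0.0224), and the Cdk2-activating phosphatase gene Cdc25a by 0.55 ± 0.13 (adjusted p = 0.0318). Samhd1, which breaks down deoxynucleotides, had 1701, 1524 and 1792, then 1537, 1661 and 1163, then 1175, 1306 and 1213, and fell by 0.44 ± 0.10 (adjusted p = 0.0270).

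In de novo expanded over pre-malignant cells 50 of the 60 were above and 10 below (median 0.18), where 51% of all genes were above. limma called 0 of the 60, as it called 0 of all genes. At an unadjusted p under 0.05, 9 were higher (15%, against 5.99% of all genes) and 1 lower (against 5.26% of all genes). Between the leukemic groups limma also called 0 of 60 (0.00727% of all genes were called), and the median was 0.03. At an unadjusted p under 0.05, 2 were higher (2.72% of all genes) and 0 lower (2.11% of all genes). The 10 genes of quiescence and cell cycle exit held 1 call in each direction in stably expanded cells, where 4.34% of all genes were called higher and 3.61% lower. Both called genes encode inhibitors of cyclin-dependent kinases and were named after their values were seen. Cdkn1c rose by 2.54 ± 0.43 log2 (SE; limma adjusted p = 0.00877), and Cdkn1b fell by 0.48 ± 0.11 (adjusted p = 0.0258).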

How the data were processed

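RNA from 9 sorted samples had been made into libraries with the SMARTer Stranded Total RNA-Seq Pico kit from small numbers of cells and sequenced on a NextSeq. Reads were trimmed with Trim Galore 0.6.4, aligned with STAR 2.6.1d to GRCm38.p6 and counted with featureCounts 1.6.4 (versions from the submitters' processing notes), with GENCODE annotation, in nf-core/rnaseq. The authors deposited 3 pairwise tables of read counts that they divided by DESeq2 size factors, a signal here called normalized counts, with exon lengths. Their fold changes, SE, Wald statistics, p-values and adjusted p-values were not used. Undoing this division gave back whole reads, within 0.05 reads for at least 99.99% of values.

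Groups were compared in R 4.3.3 with limma 3.58.1 (trend) on log2(normalized count + 1), two-sided, in genes with a mean of at least 10, adjusted by Benjamini-Hochberg over all genes tested. All leukemic against pre-malignant used size factors over 9 libraries. edgeR 4.0.16 and DESeq2 1.42.0 were run on the recovered reads as alternatives, besides pseudocounts of 0.1 and 5, no limit or one of 50 on the mean, quantile normalization, CPM, 1 fit of 9 libraries and leaving out each library. The script was tested on simulated data. Tables and figures used Python 3.11.15 and matplotlib 3.10.9.

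The members and lists were chosen with earlier results of these data known, and some genes of the lists are not reported here. Values per library are given for members called in any comparison, for the smallest p and the lowest difference of each role in all leukemic against pre-malignant cells, and for the largest rise and fall of each pairwise comparison; Fen1, Ccne1, Mcm2, Mcm4, Prim1, Pole and Rfc5 were added after their values were seen. Nothing in the labels shows separate cultures beyond clones and mice, and p-values set a difference against the spread between these samples. The pre-malignant spread is between clones of the same mouse and holds no difference between mice. At 10379739 or more reads on genes per library, a count of 0 would allow up to 3 reads, for counting error only.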

Additional observations from a re-analysis of the deposited data

How the results depend on the processing

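No paired analysis was possible because the deposited columns carry neither clone nor mouse. Over 34 results and 584 values under alternatives, 537 were scored as unchanged. For a gene this meant the same direction and side of the limit. For a count it meant 0 again or a value within 1.5 times, and for a median the same sign and a shift within 0.083. Most of the 537 were uncalled differences that stayed uncalled. Of the rest, 22 lost and 3 gained a call, 14 reversed and 8 counts moved by over 1.5 times. A gene was scored only in comparisons for which the rule above had picked it, so the 3 do not hold every gained call. Rrm1 in stably expanded over pre-malignant cells, for example, gained a call under some alternatives and was not scored there. All 22 losses were of the 3 genes called in stably expanded over pre-malignant cells. Lig1 lost its call in 10 of 16 alternatives, Rrm2 in 7 and Ccne2 in 5. The causes were not tested. Members called in de novo expanded over pre-malignant cells were 0 to 3 with 1 library left out, in all leukemic over pre-malignant cells 0 to 4, and between leukemic groups 0 throughout. In stably expanded over pre-malignant cells they were 3, 0 to 3 with 1 library left out, 0 in 1 fit of all 9 libraries (8 of all genes) and 0 with a covariate for the percent of reads in olfactory and vomeronasal receptors (added once the data had been seen), and 2 to 4 otherwise; quantile normalization called Ccne2 and, lower, Pola1. Adjusted p ranged over the alternatives from 0.00377 to 0.556 for Ccne2, 0.0116 to 0.787 for Rrm2 and 0.0338 to 0.712 for Lig1. The percent used as covariate did not overlap between pre-malignant and stably expanded libraries, so the fit with it cannot separate it from the group.

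The median difference of the members from pre-malignant cells stayed between 0.14 and 0.23 in the de novo group, 0.08 and 0.18 in the stably expanded group and 0.12 and 0.19 in all leukemic cells, and between the leukemic groups it turned from -0.03 to 0.010 without de novo expanded library 1 (range -0.094 to 0.010 with 1 library left out). With the covariate, which this fit cannot separate from the group, 30 of 46 members were higher in stably expanded cells, in place of 38. Signs reversed only in differences that were not called. Gins1 in de novo expanded cells became 0.13 without de novo expanded library 3. In all leukemic cells, leaving out 1 library gave Gins1 -0.29 to 0.0099 (above 0 without de novo expanded library 3), E2f1 -0.096 to 0.038 (above 0 without pre-malignant library 3 and without library 3 of either leukemic group), Cdc6 -0.068 to 0.024 (above 0 without stably expanded library 3), Pcna -0.037 to 0.086 (below 0 without pre-malignant library 1 or stably expanded library 1) and Rpa3 -0.11 to 0.30 (below 0 without pre-malignant library 2). Pcna also became -0.0062 under quantile normalization, -0.00022 under edgeR and -0.12 with the covariate, and Rpa3 became -0.31 with the covariate.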
